A study of Mus musculus with 9 samples.

Results

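The cytosolic ribosomal proteins are the protein parts of the ribosome that translates the messages of the nuclear genome. Their genes were chosen by symbol, as Rps or Rpl with a number and the closing letters such symbols carry, together with Rpsa, Rplp0, Rplp1 and Rplp2, and without pseudogenes and the Rps6k kinases. This rule gave 83 of the 17963 genes measured, 32 of the small ribosomal subunit and 51 of the large. Of the 83, 82 passed the filter on low counts, and Rpl32l, with 0 to 3 expected counts in a library, was not tested. Rpl10l, Rpl32p, Rpl39l, Rpl6l, Rps12l1, Rps3a2, Rps3a3 and Rps4l also fit the rule as RefSeq symbols but were not among the genes measured.

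RNA was sequenced from the kidney cortex of mice labelled wild type on day 4, with 3 libraries in each of 3 groups. Control mice had saline by the peritoneal route and water by the gastric route. The cisplatin group had cisplatin, a platinum drug that crosslinks DNA and is toxic to the renal tubule, with water. The YSJZD group had the drug too, and in place of water was given Yishen Jiangzhuo decoction, which is a herbal remedy. The sources used here do not state strain, age or dose, or whether each library came from its own mouse, so that a p-value here covers no more than the spread among the samples at hand, which may be technical.

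Ribosomal protein messages are among the most abundant in nearly every cell, and their levels are known to be kept close to each other because each subunit takes up its proteins in fixed proportions. They belong to the messages with a 5′ terminal oligopyrimidine tract, an unbroken run of C and T at the very start, through which the mTOR kinase and the RNA-binding protein Larp1 control how much of them is translated. In the kidney, mTOR signalling to ribosome production is known for its part in the growth of tubule cells, and free Rpl5 and Rpl11 are known to bind Mdm2 and so to stabilise p53.

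Gene starts were read from the RefSeq table of the mouse build GRCm38.p6, with the starts on 1 chromosome left out. Among the starts kept, 63 members matched, with 75 start sites. Windows of 30 bases, from 10 before the annotated start to 20 from it, are printed 5′ to 3′ on the strand of the gene, with the longest run of C or T in capitals. The first 3 are among the 4 longest such runs of members with 1 annotated start, show the stretch that names this class of message, and span the start. Rpl7a, printed last, has a run as long as that of Rpl15.
Rpl27a (chr7:109519185-109519214, plus strand): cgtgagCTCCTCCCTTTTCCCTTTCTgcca
Rpl35 (chr2:39005112-39005141, minus strand): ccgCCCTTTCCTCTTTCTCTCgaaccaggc
Rpl15 (chr14:18270967-18270996, minus strand): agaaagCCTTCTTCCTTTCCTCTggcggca
The next 5 are the members with 1 annotated start whose messages rose most with cisplatin.
Rps12 (chr10:23787190-23787219, minus strand): tcatgcggccaccgccggCCTTTTCCCCTg
Rpl36a (chrX:134585644-134585673, plus strand): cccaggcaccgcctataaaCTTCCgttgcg
Rps16 (chr7:28350679-28350708, plus strand): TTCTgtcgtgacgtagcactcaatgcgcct
Rpl12 (chr2:32961702-32961731, plus strand): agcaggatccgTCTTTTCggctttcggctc
Rpsa (chr9:120127756-120127785, plus strand): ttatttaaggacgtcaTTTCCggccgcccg
The last 5 are the members with 1 annotated start that had the smallest log2 fold changes. Most counts of Rps6 are under another entry, given below, and with these added it rose by 0.99 with cisplatin.
Rpl7l1 (chr17:46782637-46782666, minus strand): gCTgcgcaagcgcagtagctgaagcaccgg
Rpl22l1 (chr3:28805498-28805527, plus strand): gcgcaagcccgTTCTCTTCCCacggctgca
Rps6 (chr4:86857348-86857377, minus strand): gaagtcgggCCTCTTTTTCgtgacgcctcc
Rpl36al (chr12:69184048-69184077, minus strand): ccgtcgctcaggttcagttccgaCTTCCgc
Rpl7a (chr2:26910797-26910826, plus strand): CTCTTCTTTCTTTCTCCagcagccgagcaa

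A run of at least 8 bases stood in 33.3% of the 75 windows of members, against 11.2% of the 32851 windows of all genes kept. Starts on chromosome 18 were left out of both counts. A run of at least 10 bases stood in 25.3% against 4.77%. The members with a run of at least 8 bases in a window were 24 of those tested, with a median log2 fold change of 1.05 in cisplatin against control, and the 38 without had a median of 1.00. With a run of at least 10 bases the order turned, at 1.01 for the 18 members with one and 1.05 for the 44 without. The windows depend on where the annotation places the start, and a run within a window need not lie at the start itself, as in Rps12. In the 300 bases from 250 before to 50 after the start, searched on both strands, the ETS factor core CCGGAAG stood in 34.7% of member starts against 8.86% of all, and the element CTCGCGAG in 10.7% against 0.919%. GATGGCG, a YY1 core, stood in 10.7% against 3.49%, the E box CACGTG, which Myc can bind, in 10.7% against 7.15%, and TATAAA in 10.7% against 13.6%. The reverse complement of CCGGAAG starts with CTTCC and can lie in a run of C and T. These matches describe letters and are not evidence of binding.

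In control cortex the members were far above the typical gene. On a scale that divides by transcript length and library size (FPKM), the median member stood at 341 and the median of the tested genes at 7.02. Rpl41, which encodes the smallest ribosomal protein, was highest at 1075 ± 93.4 FPKM (SD, n = 3), followed by Rps2 of the small subunit at 1055 ± 107 FPKM. Rpl10, the large subunit protein that joins late in assembly, stood at 848 ± 124 FPKM, and the libraries of each of these genes overlapped those of its neighbour in the order. In all, 73 of the 83 members had a mean of at least 100 FPKM in control. Among the 10 below were Rps15a at 16.1 ± 1.88 FPKM and Rps20 at 25.5 ± 2.19 FPKM. The table gives these an effective length of 4980 and 3291 bases, which lowers their value per length. Without regard to length, as counts scaled to a common library total (CPM), Rps15a stood at 76.8 to 107 and Rps20 at 78.9 to 101 in control.

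All members together took 1.68% ± 0.195 (SD, n = 3) of the expected counts of a control library, 4.09% ± 0.480 of a cisplatin library and 2.50% ± 0.329 of a YSJZD library. The single libraries held 1.89%, 1.62% and 1.52% in control, 4.38%, 4.34% and 3.53% with cisplatin, and 2.73%, 2.12% and 2.64% with YSJZD. The 3 groups did not overlap, and the YSJZD libraries lay between the other groups. The small subunit took 0.636% ± 0.0796, 1.66% ± 0.210 and 0.965% ± 0.139 in the same order, and the large subunit 1.04% ± 0.114, 2.43% ± 0.270 and 1.53% ± 0.190. Since a share also moves with all other messages, the comparisons below use CPM with library totals scaled by the trimmed mean of M-values (TMM), in which the median of all tested genes stood within 0.05 of the control level on the log2 scale in every library. On that scale the median member lay at 0.26, -0.05 and -0.22 in control replicates 1, 2 and 3, at 1.10, 1.09 and 0.90 with cisplatin, and at 0.51, 0.16 and 0.46 with YSJZD. The members moved together within a library, and YSJZD replicate 2 lay below control replicate 1.

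**Figure D1:**
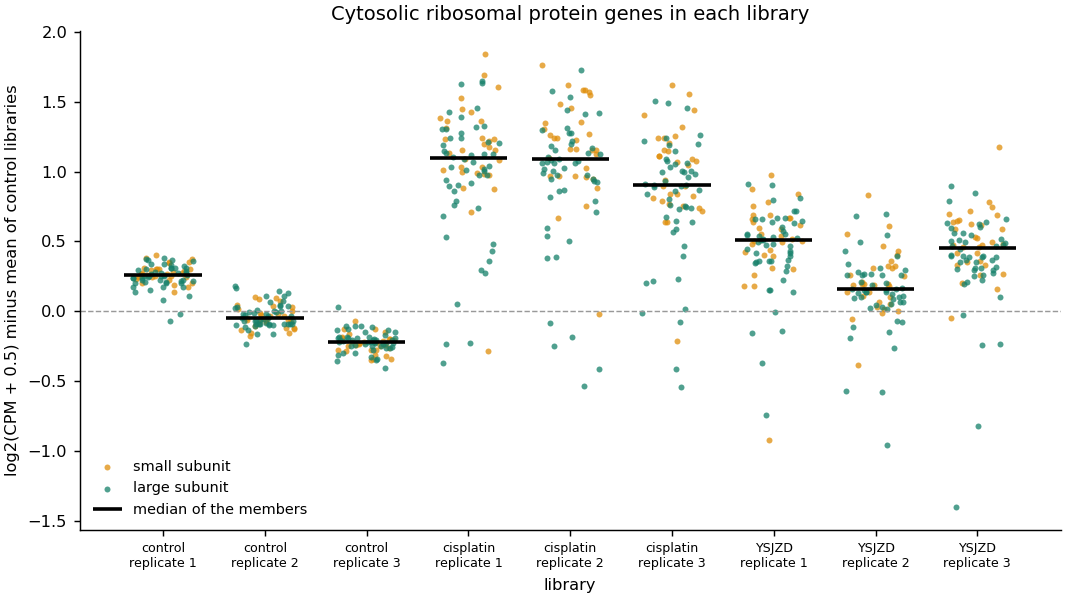
Each point is 1 of the 82 tested ribosomal protein genes in 1 library, as log2(CPM + 0.5) minus the mean of its control libraries, with small subunit genes in orange, large subunit genes in green and the median of the members as a black line. The medians lie at 0.90 to 1.10 in the cisplatin libraries, at 0.16 to 0.51 in the YSJZD libraries and at -0.22 to 0.26 in control, and a few large subunit genes and Rps6 stay near or below 0 with cisplatin.

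Cisplatin against control asks what the drug changed in these genes by day 4. The messages of nearly the whole ribosome were higher with cisplatin. By edgeR's quasi-likelihood test at a Benjamini-Hochberg adjusted p under 0.05, 73 of the 82 members rose and 0 fell, with 28.6% of all tested genes higher and 26.0% lower. The median log2 fold change was 1.03, with quartiles of 0.85 and 1.18, against 0.04 over all tested genes, and the SD over the members was 0.43 against 1.66. A rise of at least 2-fold was called in 45 members, where 18.6% of all genes had one. The cisplatin and control libraries did not overlap in the higher direction in 75 members, against 32.4% of all genes. Scaled by library totals alone, the members' median was 1.27 and that of all genes 0.27, and the genes called over the whole table were then 5183 higher and 2656 lower in place of 3987 and 3628.

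In the small subunit 31 of 32 genes rose, with a median of 1.12. Rps12, a small subunit protein known from cell competition in flies, stood at 197, 170 and 139 CPM in control, 600, 568 and 513 CPM with cisplatin, and 266, 209 and 262 CPM with YSJZD. All cisplatin libraries lay above all others, with a log2 fold change of 1.73 ± 0.17 (SE, adjusted p = 1.98e-05), the greatest rise of any member. Rps16 stood at 217, 148 and 138 CPM in control, 532, 505 and 484 CPM with cisplatin, and 301, 218 and 276 CPM with YSJZD, a rise of 1.60 ± 0.20. Its order of groups was that of Rps12, and every YSJZD library lay above every control library. Rpsa, known also as a laminin receptor, stood at 820, 586 and 549 CPM in control, 1955, 1908 and 1517 CPM with cisplatin, and 1147, 641 and 904 CPM with YSJZD, a rise of 1.46 ± 0.24 on the log2 scale. YSJZD replicate 2 lay within the control range for Rpsa.

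Among other small subunit genes, Rps19 and Rps24, both known from inherited Diamond-Blackfan anaemia, rose by 1.47 ± 0.19 and 1.44 ± 0.16 on the log2 scale. Rps20 rose by 1.47 ± 0.17. The least of the called rises in this subunit were those of Rps25, at 0.69 ± 0.15, and Rps2, at 0.75 ± 0.18, and both held in each fit that left out 1 library. Rps6, the substrate of the S6 kinases, was the member of this subunit that did not pass, at 24.5, 22.4 and 18.5 CPM in control and 17.7, 21.4 and 18.7 CPM with cisplatin (-0.18 ± 0.22, adjusted p = 0.508). Its level is that of a gene with most of its counts under another entry, given below.

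In the large subunit 42 of 50 tested genes rose, with a median of 0.97. The stalk proteins, which draw elongation factors to the ribosome, all rose. Rplp1 stood at 246, 177 and 153 CPM in control, 586, 561 and 516 CPM with cisplatin, and 331, 211 and 286 CPM with YSJZD, a rise of 1.53 ± 0.21. Rplp0, the base of the stalk, rose by 1.37 ± 0.18 and Rplp2 by 1.13 ± 0.18. Rpl12, which lies beside the stalk, rose by 1.5 ± 0.21. The 3 stalk genes did not overlap between the cisplatin and control libraries.

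Rpl5 and Rpl11, which with the smallest large subunit RNA form the particle that can hold Mdm2, rose by 0.80 ± 0.17 and 0.99 ± 0.15. Rpl11 stood at 187, 208 and 176 CPM in control, 390, 397 and 347 CPM with cisplatin, and 302, 219 and 268 CPM with YSJZD. Rpl11 lay near the median of the members and Rpl5 below their lower quartile. Rpl23, a further protein known to bind Mdm2, rose by 1.29 ± 0.14. Rpl41 rose by 1.04 ± 0.19, Rpl38 by 1.26 ± 0.17 and Rpl39 by 1.14 ± 0.18. Rpl10 (0.49 ± 0.17, adjusted p = 0.0332) and Rpl3 (0.51 ± 0.15, adjusted p = 0.0143), which reaches toward the peptidyl transferase centre, had the least of the called rises. These were also the called members that did not pass in every fit with 1 library left out. Rpl10 was lost without cisplatin replicate 1 or 2 or control replicate 2 or 3, and Rpl3 without control replicate 2 or 3.

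The 8 tested large subunit genes that did not pass were Rpl7l1 (-0.42 ± 0.17), Rpl22l1 (-0.31 ± 0.20), Rpl3l (-0.23 ± 0.56), Rpl29 (-0.23 ± 0.33), Rpl34 (0.13 ± 0.30), Rpl36al (0.28 ± 0.16), Rpl35a (0.32 ± 0.17) and Rpl7a (0.40 ± 0.16). Of these, Rpl7l1, Rpl22l1, Rpl3l and Rpl36al are copies named after another member, and Rpl29 and Rpl34 have near-identical pseudogene entries. Rpl7a was at 613, 446 and 430 CPM in control and at 686, 640 and 645 CPM with cisplatin (adjusted p = 0.0554). These libraries did not overlap, and without control replicate 1 Rpl7a passed the test at 0.58. Rpl35a was at 177, 131 and 117 CPM in control and at 171, 197 and 160 CPM with cisplatin, and passed at 0.50 without that same library. Rpl7l1 passed as lower, at -0.53, without control replicate 2.

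**Figure D2:**
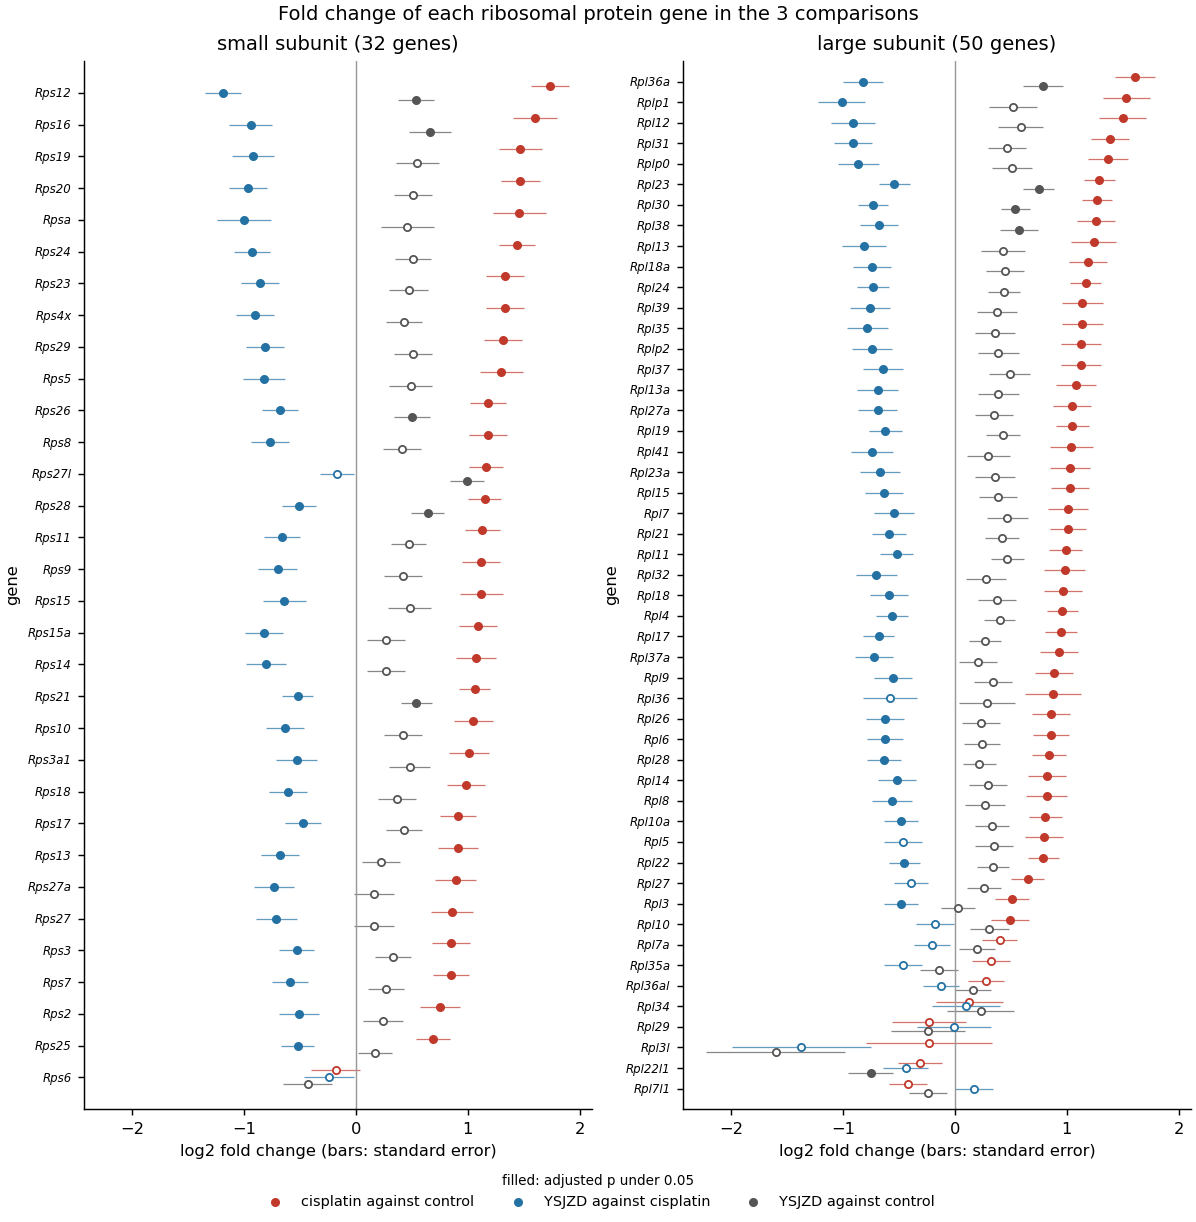
Log2 fold change of each tested member in cisplatin against control (red), YSJZD against cisplatin (blue) and YSJZD against control (grey), with small subunit genes on the left, large subunit genes on the right and standard errors as bars. Filled points passed an adjusted p under 0.05, which 73 members did as higher in red, 68 as lower in blue, and 10 as higher and 1 as lower in grey.

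YSJZD against cisplatin asks what the decoction changed in mice given the drug, and shares its cisplatin libraries with the comparison above. The ribosomal protein messages were lower with YSJZD. Of the 82 members, 68 fell and 0 rose, with 18.0% of all tested genes lower and 17.4% higher. The median was -0.64, with quartiles of -0.77 and -0.52, against -0.01 over all tested genes, and the libraries of the 2 groups did not overlap in the lower direction in 74 members, against 23.6% of all genes. In the small subunit 30 of 32 fell (median -0.69), and in the large subunit 38 of 50 (median -0.62). The count of 68 fell to 35 without YSJZD replicate 2, the YSJZD library in which the members were lowest, with a median of -0.54. Without cisplatin replicate 3, which stood apart from the other libraries of its group along a principal component, 67 members were called.

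The greatest falls were those of Rps12 (-1.19 ± 0.16, adjusted p = 0.000632), Rplp1 (-1.01 ± 0.21), Rpsa (-1.0 ± 0.24), Rps20 (-0.96 ± 0.17), Rps16 (-0.94 ± 0.19), Rps24 (-0.93 ± 0.16) and Rps19 (-0.92 ± 0.19). Each of these 7 was called in all 9 fits that left out 1 library, as were 35 of the 68 in all. Rpl11 fell by 0.52 ± 0.15, a call lost without YSJZD replicate 2 or 3 or cisplatin replicate 1 or 2, and Rpl5 did not pass (-0.46 ± 0.17, adjusted p = 0.0612). Rps2 fell by 0.51 ± 0.18, a call lost without YSJZD replicate 2 or 3, cisplatin replicate 1 or 2, or control replicate 2 or 3. Rps27l was the member above 100 CPM with the smallest difference between these groups, at 148, 140 and 135 CPM with cisplatin and 123, 112 and 142 CPM with YSJZD (-0.17 ± 0.15, adjusted p = 0.416). The other members that did not pass were Rpl10 (-0.18), Rpl7a (-0.20), Rpl27 (-0.39), Rpl36 (-0.58), Rpl36al (-0.12), Rpl35a (-0.46), Rpl22l1 (-0.44), Rpl7l1 (0.17), Rpl3l (-1.37), Rpl29 (-0.01), Rpl34 (0.10) and Rps6 (-0.24). Of the members that did not pass, 4 did with a library left out. Rpl5 passed without control replicate 3, Rpl36 without cisplatin replicate 3, Rpl3l without YSJZD replicate 1, and Rpl35a without cisplatin replicate 3 or control replicate 1 or 3.

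YSJZD against control asks what remained different from untreated cortex, with libraries that the 2 comparisons above also use. Most members did not pass this test. Of the 82, 10 rose and 1 fell, with 9.93% of all tested genes higher and 9.37% lower. The median was 0.39 against 0.01 over all tested genes, and 76 members had a log2 fold change above 0. The libraries did not overlap in the higher direction in 25 members, against 20.8% of all genes. The members that rose were Rps27l (0.99 ± 0.15), Rpl36a (0.79 ± 0.18), Rpl23 (0.75 ± 0.14), Rps16 (0.66 ± 0.19), Rps28 (0.64 ± 0.15), Rpl38 (0.57 ± 0.17), Rps12 (0.54 ± 0.16), Rps21 (0.54 ± 0.14), Rpl30 (0.54 ± 0.13) and Rps26 (0.50 ± 0.16). Rpl22l1 fell by 0.75 ± 0.20.

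Of these calls, Rps27l and Rpl23 held in all 9 fits that left out 1 library. The number of members called higher was 17, 2 and 3 when control replicates 1, 2 and 3 were left out in turn, of which replicate 1 is the control library with the highest members. It was 5, 18 and 4 when YSJZD replicates 1, 2 and 3 were left out. The call of Rpl22l1 was lost without YSJZD replicate 1 or 3 or control replicate 1 or 2. Scaled by library totals alone, 53 members were called higher with a median of 0.58, where the median of all genes was 0.20 and 2394 genes were higher and 780 lower over the whole table, in place of 1386 and 1308.

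Several members are copies of another member, and their levels were set against those genes within each library, where the scaling of libraries cancels. Rps27l, a copy of Rps27 and a known p53 target, had 0.335, 0.458 and 0.358 times the counts of Rps27 in control, 0.440, 0.435 and 0.528 times with cisplatin, and 0.603, 0.671 and 0.748 times with YSJZD. The YSJZD libraries lay above all others. In CPM, Rps27l stood at 71.2, 66.7 and 51.2 in control, 148, 140 and 135 with cisplatin, and 123, 112 and 142 with YSJZD, while Rps27 rose by 0.86 ± 0.19 with cisplatin and fell by 0.71 ± 0.18 from there with YSJZD, a fall not called without YSJZD replicate 2. Rpl36al went the other way against Rpl36a. It had 0.787, 1.05 and 0.890 times the counts of Rpl36a in control, 0.347, 0.356 and 0.368 times with cisplatin, and 0.480, 0.675 and 0.598 times with YSJZD, and the 3 groups did not overlap. Rpl36a stood at 96.2, 72.9 and 58.7 CPM in control, 234, 247 and 212 CPM with cisplatin, and 140, 120 and 134 CPM with YSJZD.

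Rpl22l1 had 0.104, 0.126 and 0.116 times the counts of Rpl22 in control, 0.0511, 0.0429 and 0.0678 times with cisplatin, and 0.0525, 0.0619 and 0.0484 times with YSJZD. Both treated groups lay below control and overlapped each other. Rpl7l1, which encodes a nucleolar protein like Rpl7, had 0.335, 0.239 and 0.376 times the counts of Rpl7 in control, 0.132, 0.109 and 0.106 times with cisplatin, and 0.222, 0.184 and 0.169 times with YSJZD. Rpl3l, the form of Rpl3 known from heart and skeletal muscle, was low in every library, at 0.0593 to 1.24 CPM. An exact two-sided permutation test of 3 libraries against 3 has 20 arrangements and cannot go below p = 0.1. This exact test gave that value for the ratios of Rpl36al, Rpl22l1 and Rpl7l1 in cisplatin against control, and p = 0.3 for Rps27l. In YSJZD against cisplatin the exact test gave 0.1 for Rps27l, Rpl36al and Rpl7l1 and 0.9 for Rpl22l1.

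**Figure D3:**
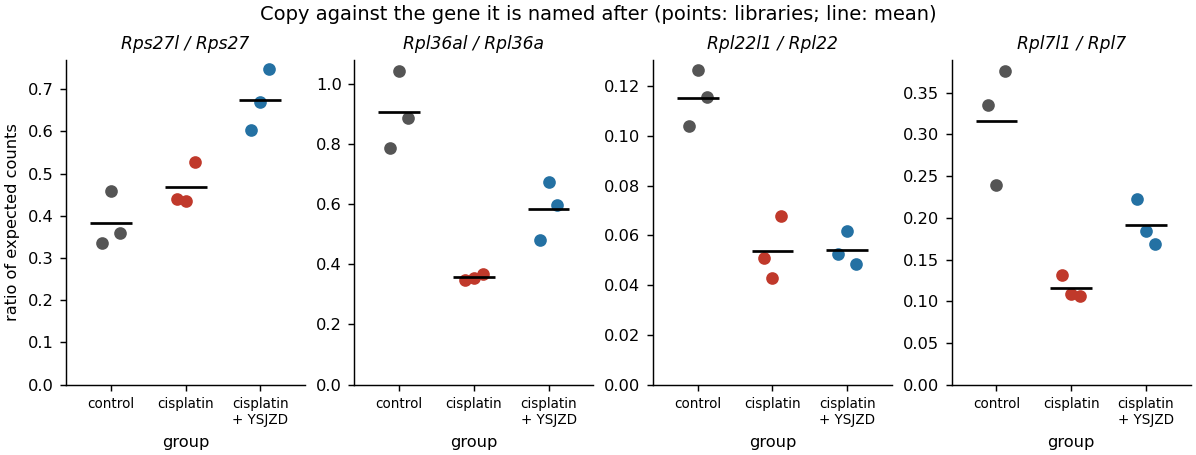
Ratio of the expected counts of 4 copies to those of the gene each is named after, with 1 point for each library and the group mean as a line. Rps27l against Rps27 is highest in the YSJZD libraries (0.603 to 0.748), and the other 3 ratios are highest in control.

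The low level of some members came with a second entry in the table. Rps6-ps4, a pseudogene entry whose 750 bases are 100% identical to the Rps6 message, had 6201, 5004 and 4871 expected counts in control, 15066, 14581 and 11009 with cisplatin, and 8809, 6373 and 8142 with YSJZD, or 16.2 to 46.2 times the counts listed under Rps6. Rpl34-ps1 (99.4% identical over 354 bases) held 43.2 to 108 times the counts of Rpl34, and Gm8210 (99.4% over 483 bases) held 98.5 to 245 times those of Rpl29. The counting divides reads between such entries, so that the values of Rps6, Rpl34 and Rpl29 alone do not give the level of these messages. With the counts of gene and entry added, an alternative chosen after the values were seen, cisplatin was higher than control by 0.99 ± 0.16 for Rps6, 0.86 ± 0.17 for Rpl34 and 0.69 ± 0.15 for Rpl29. All 3 sums passed the test, and 76 of 82 members were then called higher. YSJZD was lower than cisplatin by these sums, at -0.71 ± 0.16, -0.63 ± 0.17 and -0.53 ± 0.15 in the same order, and 71 members were called lower. Rpl31-ps12 and Gm10045, which resemble Rpl31 and Rpl21, held 0.00835 to 0.0488 times the counts of those genes.

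**Figure D4:**
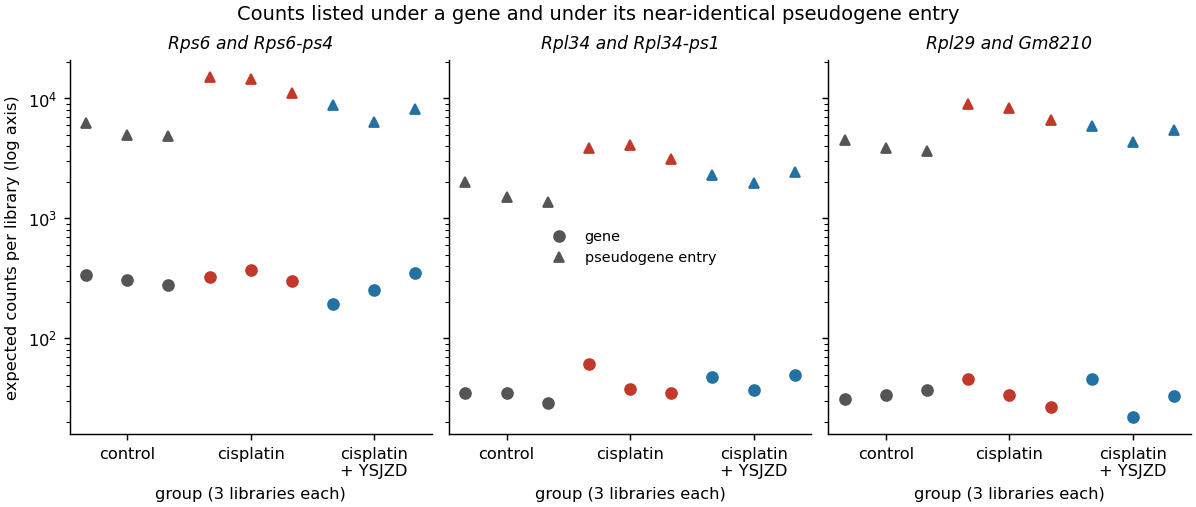
Expected counts per library, on a log axis, of Rps6, Rpl34 and Rpl29 (circles) and of the pseudogene entry near-identical to each (triangles), in control (grey), cisplatin (red) and YSJZD (blue) libraries. The entries hold at least 16.2 times the counts of the gene in every library, and are highest in the cisplatin libraries.

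Within genes, some transcripts took a smaller share of the counts with cisplatin. Of the members, 33 had 2 or more transcripts in the table, and 16 had at least 2 that each took over 5% of the gene's counts. The 4 genes given here were picked after their values were seen, for large differences in share, and no test was made. Not all members went this way. The main transcript of Rpl3 took a mean of 97.7% in control and 95.1% with cisplatin, without overlap. For the transcripts of Rpl5 the shares in these groups overlapped. The second transcript of Rps24, with an effective length of 466 against 682 bases for the main transcript, took 14.6%, 13.4% and 20.6% of the gene's counts in control, 1.68%, 4.99% and 4.25% with cisplatin, and 3.60%, 7.62% and 7.71% with YSJZD. The second transcript of Rpl15, of 1686 against 650 bases, took 14.2%, 13.3% and 14.2% in control, 3.22%, 5.39% and 4.42% with cisplatin, and 7.13%, 12.5% and 11.8% with YSJZD. In both genes the control libraries lay above all others. For Rpl31 the mean share was 12.5% ± 0.442, 5.34% ± 1.57 and 9.92% ± 2.14 (SD, n = 3) in the same order, and for Rpl35a 25.7% ± 1.02, 13.8% ± 1.75 and 18.2% ± 1.67. These shares are estimates, since reads are divided between transcripts that overlap, and the main transcripts of the 4 genes were highest in share with cisplatin.

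**Figure D5:**
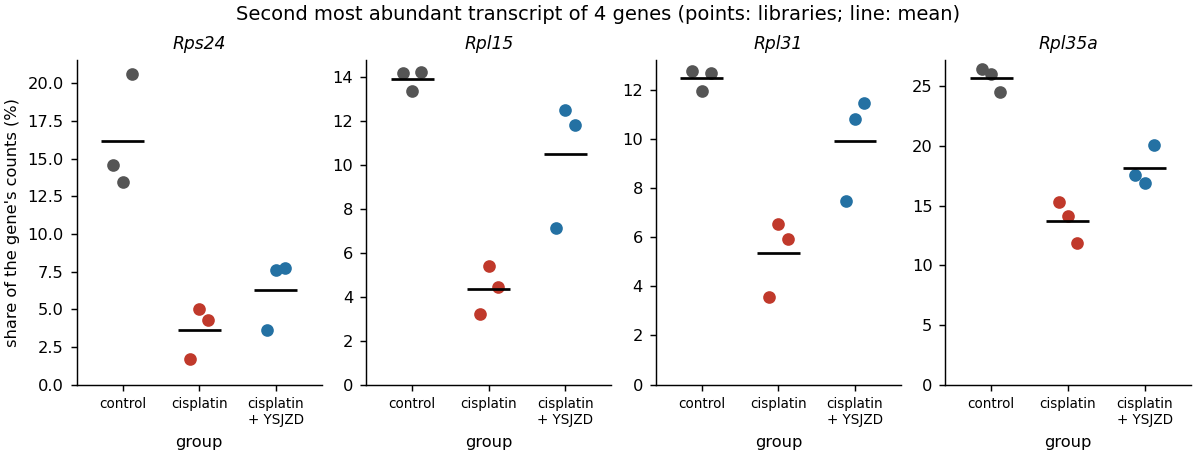
Share of a gene's expected counts, in percent, taken by the second most abundant transcript of Rps24, Rpl15, Rpl31 and Rpl35a, with 1 point for each library and the group mean as a line. In each gene the cisplatin libraries lie below the control libraries, with means of 3.64%, 4.34%, 5.34% and 13.8% against 16.2%, 13.9%, 12.5% and 25.7%.

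Genes of the same machinery were taken from lists. Fau and Rack1 encode cytosolic ribosomal proteins although the rule does not match their symbols, and they rose with cisplatin by 0.82 ± 0.16 and 1.08 ± 0.19. Of 17 translation genes whose messages are known to carry the tract, 9 rose and 0 fell in cisplatin against control, with a median of 0.34. The share that rose was 52.9%, against 28.6% of all tested genes. Those that rose included the poly(A)-binding protein gene Pabpc1 (1.31 ± 0.15), the elongation factor genes Eef1b2 (1.03 ± 0.16) and Eef1a1 (0.72 ± 0.16), the initiation factor gene Eif3f (1.00 ± 0.15), Tpt1 (0.80 ± 0.18) and Hnrnpa1 (0.78 ± 0.15). In YSJZD against cisplatin 4 of the 17 fell, a share of 23.5%, near the 18.0% of all tested genes. Without YSJZD replicate 2, 1 of the 17 fell. With libraries scaled by totals alone 15 of the 17 rose with cisplatin, where 5183 of all 13954 tested genes did.

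Of 67 nucleolar factors of ribosome assembly, 20 rose and 2 fell with cisplatin, with a median of 0.29. The share that rose, 29.9%, was near the 28.6% of all tested genes. The share that fell was 2.99%, against 26.0% of all tested genes, whose median was 0.04. Under scaling by totals alone 37 of the factors rose and 1 fell. Rrp1 (0.58 ± 0.12), Rrp1b (0.92 ± 0.21), Gnl2 (0.78 ± 0.17), Sdad1 (0.74 ± 0.18) and Taf1d (1.05 ± 0.22), a factor of RNA polymerase I, were among those that rose, and Utp20 fell by 0.81 ± 0.21. In YSJZD against cisplatin 0 rose and 3 fell, namely Nhp2 (-0.56 ± 0.14), Ddx52 (-0.71 ± 0.18) and Taf1d (-0.63 ± 0.21), of which 1 passed without YSJZD replicate 2. These were 0% and 4.48% of the list, both below the 17.4% higher and 18.0% lower of all tested genes. The call of Taf1d was lost without YSJZD replicate 1, 2 or 3, cisplatin replicate 1, 2 or 3, or control replicate 1. Of 31 initiation factors, 9 rose and 4 fell with cisplatin, the former a share of 29.0% against the same 28.6% of all tested genes. The 4 that fell were 12.9% of the list, against 26.0% of all tested genes. Scaled by totals alone, 18 rose and 1 fell. Without cisplatin replicate 3 the counts were 7 and 2. Eif6, which keeps new large subunits apart from small ones, rose most (1.73 ± 0.21), followed by Eif1a (1.06 ± 0.14), Eif2s2 (0.75 ± 0.18) and Eif4a1 (0.67 ± 0.16), and Eif4a2 fell by 0.74 ± 0.20.

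The 78 mitochondrial ribosomal protein genes, which build the separate ribosome of the mitochondrion, went the other way with cisplatin, with 4 higher, 46 lower and a median of -0.48. These were 5.13% and 59.0% of the list, against 28.6% and 26.0% of all tested genes. Under scaling by totals alone 8 were higher and 24 lower, with a median of -0.23. Of all 13954 tested genes 5183 were then higher and 2656 lower, with a median of 0.27. Their share of counts was 0.362% ± 0.0190 in control, 0.320% ± 0.0167 with cisplatin and 0.365% ± 0.0201 with YSJZD (SD, n = 3). In YSJZD against cisplatin 22 were higher and 1 lower, with a median of 0.30, and without cisplatin replicate 3 the higher numbered 15. The 22 and the 1 were 28.2% and 1.28% of the list, against 17.4% and 18.0% of all tested genes.

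Of 21 genes known to control ribosomal protein production or to link it to p53, 9 rose and 3 fell with cisplatin. These were 42.9% and 14.3% of the list, against 28.6% and 26.0% of all tested genes. Myc, which drives ribosome genes, rose by 4.30 ± 0.39, and the translation repressor genes Eif4ebp1 and Eif4ebp3, which mTOR restrains, rose by 3.76 ± 0.28 and 1.48 ± 0.39. The mTOR inhibitors Ddit4 (2.32 ± 0.25), Sesn2 (1.20 ± 0.21) and Tsc1 (0.78 ± 0.19) rose as well, as did Cdkn1a, Mdm2 and Trp53. Mtor fell by 0.75 ± 0.14, its partner Rptor by 0.53 ± 0.15 and Eif4ebp2 by 0.39 ± 0.13, the last a call lost without cisplatin replicate 1, 2 or 3 or control replicate 1 or 3. Scaled by totals alone, Mtor was the 1 of these that passed as lower. Larp1 (0.03 ± 0.14), Rheb (0.04 ± 0.13), Rps6kb1 (0.03 ± 0.20), Rps6kb2 (-0.23 ± 0.13), Rictor (0.53 ± 0.24), Mlst8 (-0.22 ± 0.21), Tsc2 (-0.29 ± 0.13), Sesn1 (0.46 ± 0.23) and Zfp692 (0.27 ± 0.23) did not pass. In YSJZD against cisplatin Eif4ebp1 (-2.01 ± 0.26), Ddit4 (-1.71 ± 0.25), Eif4ebp3 (-1.55 ± 0.39) and Myc (-1.28 ± 0.34) were among the 7 that fell, of which 4 passed without YSJZD replicate 2. The 7 were 33.3% of the list, against 18.0% of all tested genes. The call of Myc was lost without YSJZD replicate 2 or 3.

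Library totals lay between 15029286 and 16690482 expected counts. Markers of the proximal tubule were present in every library, with a summed level of 74580 to 96260 CPM in control, 9355 to 10240 CPM with cisplatin and 21310 to 41380 CPM with YSJZD. In cisplatin against control 0 of these 12 markers were higher and 10 lower, where 26.0% of all tested genes were lower. Of 7 markers of the thick limb, distal tubule and collecting duct, 0 were higher and 6 lower. Their sums were 3922 to 7244 CPM in control, 979 to 2186 CPM with cisplatin and 2392 to 3922 CPM with YSJZD. Of 9 macrophage markers 7 were higher with cisplatin, where 28.6% of all tested genes were higher. The macrophage sums were 106 to 157, 386 to 1957 and 105 to 154 CPM in control, cisplatin and YSJZD libraries. All 5 tested neutrophil markers were higher (sums of 1.31 to 1.46, 23.1 to 60.0 and 3.74 to 8.06 CPM), as were 5 of 6 fibroblast markers (115 to 232, 225 to 684 and 173 to 235 CPM) and 3 of 7 markers of dividing cells (54.1 to 150, 133 to 240 and 63.9 to 85.5 CPM). The sum of erythroid markers went from 263 to 604 CPM in control to at most 1.25 CPM in the treated libraries, and the 2 that were tested fell. Lymphocyte markers were low throughout, with sums of 1.68 to 13.4 CPM for T cells and 0.248 to 1.37 CPM for B cells, and with 4 to 12 counts of Cd3d, Cd3e or Cd3g over the libraries of a group. The part of these cell types in the change of ribosomal protein messages was not tested, and in bulk tissue fewer cells of a type and less RNA per cell cannot be told apart.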

How the data were processed

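The deposited table lists 58075 transcripts by RefSeq identifier, each with an Entrez gene number. Its read count columns are expected counts, which the submitters' processing notes place beside RSEM 1.3.1, and DESeq2 1.4.5 is named there too. A further set of values per sample, as the authors deposited them, was taken to be FPKM from its values. GRCh38, which is a human build, is the build in those notes although the samples are from mice, and which aligner and mouse build were used is not given in the sources used here. The authors' 6 group mean columns were not used.

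Expected counts were summed by Entrez gene and rounded, and symbols came from RefSeq (GRCm38.p6) for 17847 genes, with 116 gene numbers left without one. All 9 libraries were fitted in edgeR 4.0.16 (R 4.3.3) with filterByExpr by group (13954 genes kept, 4009 removed), TMM factors of 0.855 to 1.105 and group as the only term, with a quasi-likelihood F test, two-sided, and Benjamini-Hochberg adjustment over all tested genes. The common biological coefficient of variation was 0.234. CPM values use the TMM-scaled totals. The fit was tested on counts simulated from its own estimates of spread, which cannot show whether the model suits the real libraries. Alternatives were other scalings and filters, DESeq2 1.42.0, limma 3.58.1 (voom, and log2(FPKM + 0.1)), a fit of the 6 libraries compared, a replicate block and leaving out each library.

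Genes were named by rule. Among the members these were the 8 highest and 8 lowest log2 fold changes of a comparison, those not called higher with cisplatin, copies, stalk and Mdm2-binding genes and the 6 highest in FPKM, and outside them the regulators and up to 6 genes of each list by smallest p. Rps15a, Rps21, Rps25, Rps26, Rpl15, Rpl21, Rpl27, Rpl27a, Rpl30, Rpl31, Rpl35, Rpl36, Nhp2 and Ddx52 fall outside it and were chosen after their values were seen. Members and lists were chosen with earlier results of these data known. Pseudogene entries were matched to members by blastn of GENCODE M21 transcripts at an identity of at least 90%. The result of 1 gene that the naming rule covers is not reported here.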

Additional observations from a re-analysis of the deposited data

How the results depend on the processing

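The rise of the members with cisplatin and their fall with YSJZD kept direction under every alternative run. Against control, members called lower with cisplatin numbered 1 rather than 0 with DESeq2 size factors in edgeR, with DESeq2 and with the replicate block, and 0 to 1 with 1 library left out. The median of 1.03 became 1.27 with library totals alone and 1.26 with limma on log2 FPKM, and 0.93 to 1.15 with 1 library left out. In YSJZD against cisplatin, members called lower ranged from 35 to 69 with 1 library left out. In YSJZD against control the count of 10 higher was least stable: 53 with library totals alone (median 0.58), 49 with limma on log2 FPKM, 23 with DESeq2 and 2 to 18 with 1 library left out, and 0 to 1 were then lower. The share of counts became 4.68%, 11.8% and 7.37% of summed FPKM in control, cisplatin and YSJZD libraries. With the replicate block 74 members were higher in cisplatin against control, 65 lower in YSJZD against cisplatin, and 11 higher and 0 lower in YSJZD against control. No pairing by replicate number was seen. Same-numbered libraries had correlations of -0.20 to 0.09 of their deviations from the group means, and differently numbered ones -0.20 to 0.24. With 3 libraries a group this check could miss a pairing, and the sample labels give replicate numbers only. With 3 libraries a group, members near the threshold cannot be placed firmly on either side of it.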

Other observations

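Of 10 genes that sense or clear stalled ribosomes, 3 were higher and 2 lower with cisplatin by edgeR's quasi-likelihood test at an adjusted p under 0.05, where 28.6% of all tested genes were higher and 26.0% lower, shares near those of the list. Between YSJZD and cisplatin 1 was higher with YSJZD, Ltn1 (0.42 ± 0.14), and 1 lower, Eif2ak4 (-0.47 ± 0.16), each a call lost in 7 of the 9 fits that left out 1 library. Map3k20, the kinase that responds to stalled and collided ribosomes, rose by 2.18 ± 0.23 on the log2 scale and did not pass between YSJZD and cisplatin (-0.50 ± 0.22, adjusted p = 0.0999), though it did without cisplatin replicate 3 (-0.71). Eif2ak4, a kinase activated on stalled ribosomes, rose by 0.92 ± 0.16, and Zfp598, a ubiquitin ligase that marks collided ribosomes, by 0.47 ± 0.14, the latter a call lost without control replicate 3. Pelo (-0.58 ± 0.13) and Ltn1 (-0.83 ± 0.14), which free stalled ribosomes and mark their unfinished chains, fell, and Hbs1l, the partner of Pelo, did not pass (-0.26 ± 0.12, adjusted p = 0.107).

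Many members are short. The 36 tested members with an effective length of up to 500 bases had a median log2 fold change of 1.07 in cisplatin against control, and the 33 between 500 and 1000 bases one of 1.01. The 237 other tested genes of up to 500 bases had a median of -0.02, with 31.2% higher and 28.7% lower, and the 956 between 500 and 1000 bases a median of 0.02.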
